A study of Mus musculus with 4 samples.

Results

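The 9 genes of immediate early transcription factors were followed in mouse hearts: Fos, Fosb, Fosl2, Atf3, Egr1, Egr3, Nr4a1, Nr4a3 and Myc. They were taken by name, and all 9 were found among the 43346 genes of the deposited table. Whole hearts of C57BL/6 mice at 6 weeks of age were compared, 2 wild-type (WT) hearts and 2 hearts with a cardiomyocyte-specific loss of the arginine methyltransferase PRMT1 (PRMT1-cKO, here also knockout hearts). Total RNA was sequenced after removal of ribosomal RNA. The labels name neither the Cre driver nor the sex of the mice, and other cells of the heart keep the gene in this model. It is not stated whether the hearts came from separate litters, so p-values measure only the spread between these hearts.

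Immediate early genes are switched on within minutes by growth factors, calcium, stretch and stress, from transcription machinery already present in the cell. Kinase cascades activate factors such as SRF with ELK partners, and CREB, which bind their promoters. Their unstable products pass the signal on. FOS proteins pair with JUN proteins as the AP-1 dimer, EGR proteins bind GC-rich sites through zinc fingers, NR4A proteins are orphan nuclear receptors, and MYC pairs with MAX to drive growth genes. In heart muscle they are known for their brief rise after pressure overload or adrenergic stimulation.

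The promoters of Nr4a1, Nr4a3, Fosl2 and Fos are shown because 2 of these genes changed between the groups and 2, one from each of the same families, did not pass the test. Each window runs from 250 bases before to 50 bases after the start site on GRCm38.p6, from RefSeq, which held an entry for 6 of the 9 genes. The windows lie at chr15:101266596-101266895 on the plus strand for Nr4a1, chr4:48045055-48045354 on the plus strand for Nr4a3, chr5:32136222-32136521 on the plus strand for Fosl2 and chr12:85473640-85473939 on the plus strand for Fos. Capitals mark matches to the motifs searched.
Nr4a1: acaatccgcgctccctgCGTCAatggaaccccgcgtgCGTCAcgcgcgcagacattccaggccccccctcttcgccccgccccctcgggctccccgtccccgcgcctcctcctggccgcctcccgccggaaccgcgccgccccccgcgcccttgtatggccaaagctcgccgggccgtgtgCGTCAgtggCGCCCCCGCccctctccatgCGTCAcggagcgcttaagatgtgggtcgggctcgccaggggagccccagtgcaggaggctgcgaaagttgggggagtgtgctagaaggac
Nr4a3: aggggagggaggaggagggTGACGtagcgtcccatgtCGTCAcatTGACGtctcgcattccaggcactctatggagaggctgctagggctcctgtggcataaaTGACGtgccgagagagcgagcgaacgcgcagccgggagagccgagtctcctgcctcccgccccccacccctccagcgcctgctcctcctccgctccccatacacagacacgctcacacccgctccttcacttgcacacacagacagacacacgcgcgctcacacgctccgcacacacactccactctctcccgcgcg
Fosl2: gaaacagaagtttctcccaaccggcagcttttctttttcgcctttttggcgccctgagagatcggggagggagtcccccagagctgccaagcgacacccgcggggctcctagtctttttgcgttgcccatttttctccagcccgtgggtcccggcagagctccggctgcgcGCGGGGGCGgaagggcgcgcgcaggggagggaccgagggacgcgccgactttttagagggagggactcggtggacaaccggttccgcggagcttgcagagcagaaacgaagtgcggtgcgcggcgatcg
Fos: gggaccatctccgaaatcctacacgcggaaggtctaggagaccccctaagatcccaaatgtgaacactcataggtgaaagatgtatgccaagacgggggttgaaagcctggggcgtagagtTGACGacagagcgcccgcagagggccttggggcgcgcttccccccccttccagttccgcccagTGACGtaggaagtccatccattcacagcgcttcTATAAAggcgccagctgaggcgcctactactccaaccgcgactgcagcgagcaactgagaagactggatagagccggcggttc

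The motifs were searched on both strands: the full cAMP response element TGACGTCA, its half-site TGACG, the AP-1 site TGANTCA, the EGR sites GCGTGGGCG and GCGGGGGCG, the NR4A site AAAGGTCA, the E-box CACGTG of MYC, the TATA box TATAAA and the CArG box of SRF by its name. A half-site is also part of every full element. Nr4a1 and Nr4a3 each held 4 half-sites, and 0.231% of the 32851 promoters of this length held 4 or more. Fos held 2, Fosb 1, Atf3 1 and Fosl2 0, and 20.8% of all promoters held at least 1. The Atf3 window, chr1:191183284-191183583 on the minus strand, lies inside the span over which its reads were counted. That span begins, on the minus strand, at 191218039, so the window is at an internal start site. The counted span of Nr4a3 begins at 48045153, within its window and before the start site used. In the GENCODE annotation Nr4a1 and Fosl2 begin at 101254269 and 32135801, before their windows. An EGR site stood in the windows of Nr4a1, Fosl2 and Fosb, and in 3.47% of all promoters. TATAAA stood in the Fos window and in 13.6% of all promoters. The full element, the AP-1 site, the NR4A site, the E-box and the CArG box had no match in the 6 windows. Among all promoters they had a match in 1.79%, 7.81%, 1.51%, 7.15% and 1.63%, in that order. These matches describe letters only, and elements beyond the window were not searched.

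The deposited table limits which of these genes can be seen. Its exon reads are almost only reads across an exon junction, since 29 of 2605955 exon reads did not cross one. Gene reads are exon reads plus intron reads, and reads lying inside a single exon are nearly absent. Some of these genes are short, with most of their span in exons: Egr1 has 678 non-exon bases in a span of 5162, and Fos 1032 in 3384. Together the 9 genes had 1653 gene reads in the 4 libraries, of which 160 were exon reads. Nr4a1 and Fosl2 gave 148 of these. Egr1 and Myc had no exon read in any library, and each of the other 5 genes had between 1 and 5. Their main AP-1 partners Jun, Junb and Jund have 1 exon each and had 0 reads in all libraries, so the table does not measure them.

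The libraries held 25509854 and 21701967 gene reads in the WT hearts against 18291730 and 18674587 in the knockout hearts. The mitochondrial ribosomal RNA gene mt-Rnr2 took between 64.9 and 65.8% of the gene reads in WT and between 51.2 and 52.8% in PRMT1-cKO. Exon reads were between 2.45 and 2.51% of gene reads in WT and between 3.60 and 4.18% in PRMT1-cKO. Levels below are CPM, the reads of a gene per 1000000 gene reads of a library, scaled by the trimmed mean of M-values (TMM). Prmt1 itself had 33 and 18 gene reads in the WT hearts against 33 and 44 in the knockout hearts, 0 of them exon reads, so these reads do not check the genotype labels (log2 change 0.44 ± 0.34, SE, n = 2 per group, edgeR adjusted p = 0.394). In bulk hearts, fewer cells of a type and less RNA per cell cannot be told apart.

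Of the 9 genes, Nr4a1 fell in PRMT1-cKO hearts, Fosl2 and Myc rose, 3 more did not pass the test and 3 had too few reads to test. The test was edgeR's quasi-likelihood test over 13869 genes, with a Benjamini-Hochberg adjusted p under 0.05. Over all genes tested 22.7% changed, 11.5% higher and 11.2% lower. Myc entered the test only through the PRMT1-cKO libraries. For genes that entered that way the filter on read counts set the groups apart in CPM before TMM scaling, though it did not fix a call. The count of changed members is therefore given as a description. Without WT replicate 1 the call for Nr4a1 held and those for Fosl2 (edgeR adjusted p = 0.104) and Myc (edgeR adjusted p = 0.185) were lost.

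**Figure D1:**
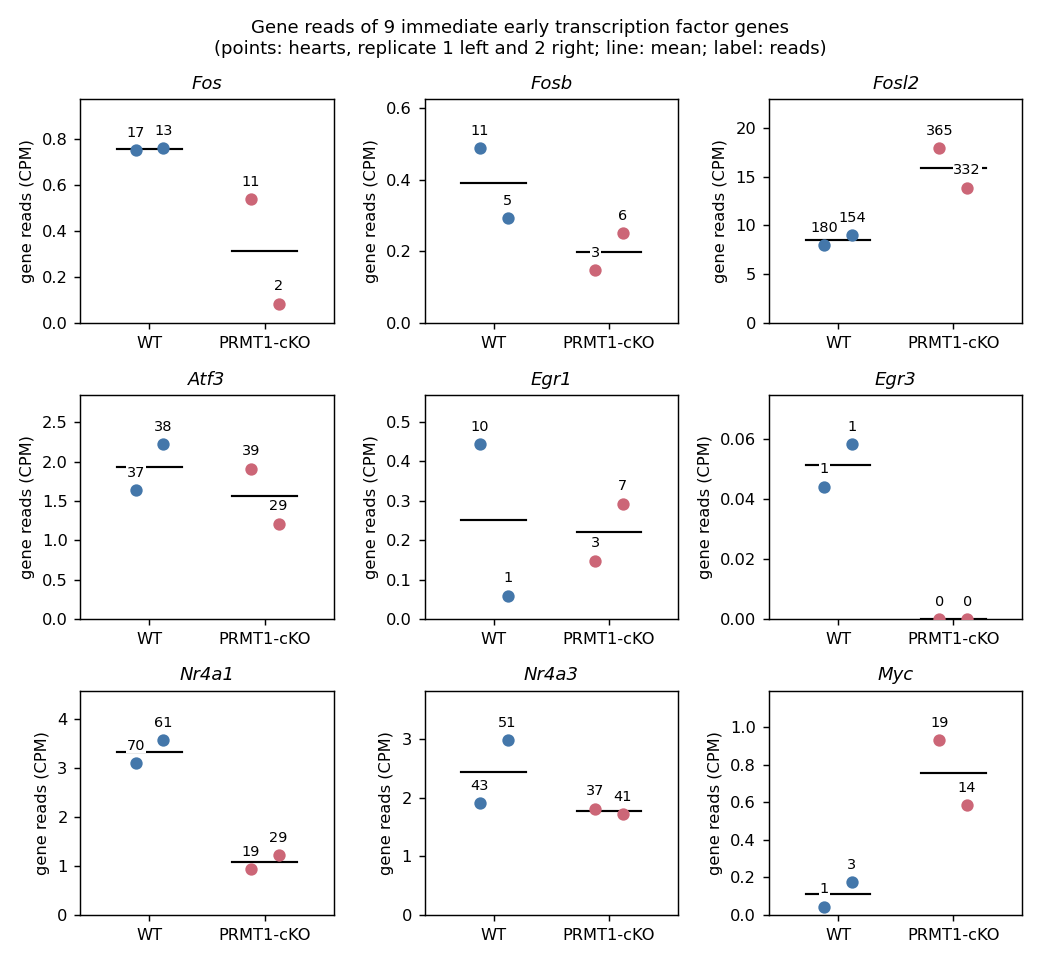
Gene reads of the 9 genes in each heart, as TMM-scaled CPM on a linear axis from 0. Points are hearts, lines are means of the 2 hearts, and the number at each point is the deposited read count. Nr4a1 is lower and Fosl2 and Myc are higher in both PRMT1-cKO hearts. Most of the genes rest on few reads, and Myc is among them with 37 in all libraries.

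Nr4a1 encodes the orphan nuclear receptor also called NUR77, which responds to adrenergic signals in heart. It lies on chromosome 15 from 101266846 to 101274792 (GRCm38, plus strand, ENSMUSG00000023034), with 7 annotated exons. Its gene reads were 70 and 61 in the WT hearts against 19 and 29 in the knockout hearts, or 3.10 and 3.56 against 0.931 and 1.21 CPM. Both PRMT1-cKO hearts were below both WT hearts. The mean went from 3.33 ± 0.329 to 1.07 ± 0.198 CPM (SD, n = 2 each). This is a 3.07-fold fall, with a log2 change of -1.62 ± 0.30 (SE) and an edgeR adjusted p of 5.11e-04. With single hearts left out the log2 change lay between -1.85 and -1.48, and the call held each time. The authors' deposited table lists a signed fold change of -3.07 for Nr4a1 with a corrected p of 6.47e-06.

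Spliced reads of Nr4a1 fell too. Its exon reads were 36 and 25 in the WT hearts against 9 and 8 in the knockout hearts, which is 56.7 and 45.3 against 11.9 and 12.2 CPM of exon reads. The groups did not overlap, and the fall was 4.21-fold (log2 change -2.08 ± 0.42, SE, edgeR adjusted p = 0.00109). Nr4a1 reached the filter on exon reads through the WT libraries only, so it had set these groups apart in CPM before TMM scaling. The filter did not fix a call, and the exon result is given as a description. In exon reads 36.2% of the 4756 genes tested changed, 17.6% higher and 18.6% lower. Its intron reads were 34 and 36 in the WT hearts against 10 and 21 in the knockout hearts, a log2 change of -1.36 ± 0.39 (SE, edgeR adjusted p = 0.0109), where 21.8% of the 13217 genes tested changed, 10.8% higher and 11% lower. The intron call did not hold when WT replicate 2 (edgeR adjusted p = 0.147) or PRMT1-cKO replicate 1 (0.0566) was left out, nor with DESeq2 (adjusted p = 0.0837). The exon change minus the intron change was -0.63 on the log2 scale and did not pass edgeR's diffSpliceDGE test (adjusted p = 0.667), with 8.04% of 4255 genes called, 4.23% higher and 3.81% lower. The median of that difference over all those genes was 0.17.

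Of the 4 of these 9 genes with over 100 reads, Nr4a1 had the highest share of spliced reads. Exon reads were 51.4, 41.0, 47.4 and 27.6% of its gene reads in WT replicates 1 and 2 and PRMT1-cKO replicates 1 and 2. Over all libraries the share was 43.6%, with an exact 95% binomial interval from 36.2 to 51.2% that covers counting error only. Fosl2 had 6.79% (5.33 to 8.50%), Atf3 2.80% (0.767 to 7.01%) and Nr4a3 0.581% (0.0147 to 3.20%). No test between genes was made, since their exon and intron lengths differ.

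**Figure D2:**
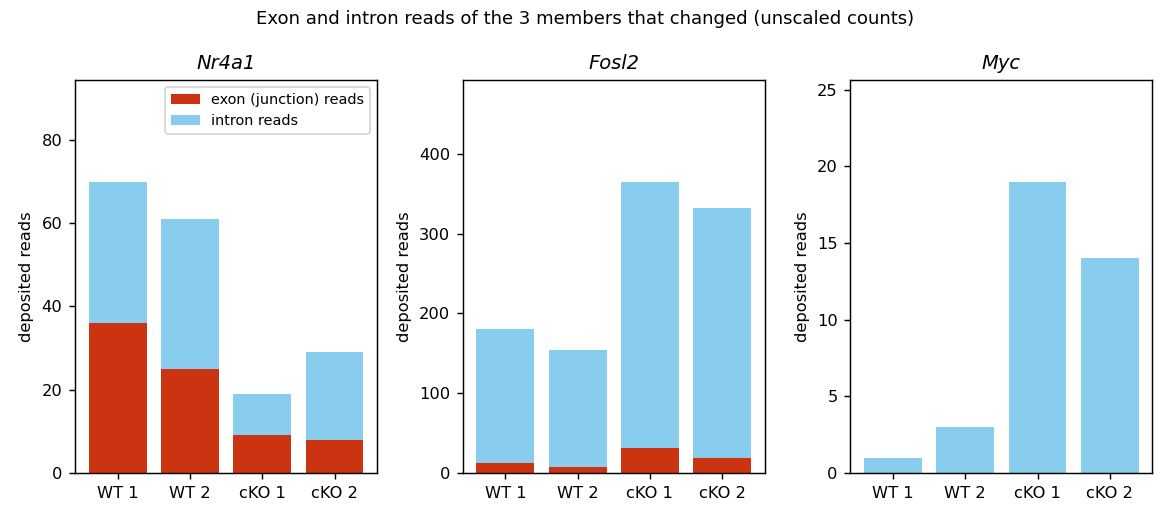
Deposited exon reads (red, nearly all across junctions) and intron reads (blue) of Nr4a1, Fosl2 and Myc in each heart, stacked and not scaled for library size, on axes that start at 0. Exon reads are 36 and 25 of the Nr4a1 reads in WT, a small part of the Fosl2 reads, and 0 for Myc.

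Nr4a3 encodes NOR-1, a receptor of the same family (chromosome 4, 48045153 to 48086447, plus strand). Its gene reads were 43 and 51 in the WT hearts against 37 and 41 in the knockout hearts, or 1.90 and 2.98 against 1.81 and 1.71 CPM. Its lower WT heart was close to the PRMT1-cKO hearts. The log2 change of -0.45 ± 0.31 (SE) did not pass (edgeR adjusted p = 0.337). Whether Nr4a1 changed more than Nr4a3 was not tested. The third receptor, Nr4a2, had 19 and 22 reads in the WT hearts against 31 and 23 in the knockout hearts, none of them exon reads, with a log2 change of 0.23 ± 0.40 (SE, edgeR adjusted p = 0.743). Rxrg, a retinoid receptor of the family that pairs with NUR77, fell by a log2 change of -2.06 ± 0.27 in gene reads and of -1.89 ± 0.56 in exon reads (SE, edgeR adjusted p = 1.49e-05 and 0.0156). It was the 1 gene called among 5 tested paralogs and cofactors of the EGR and NR4A families, a list with a median log2 change of -0.14 beside 0.01 over all genes tested.

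Fosl2 encodes FRA-2, a FOS family protein of AP-1 that lasts longer than FOS after a stimulus. It lies on chromosome 5 from 32136472 to 32157831 (plus strand, ENSMUSG00000029135), with 4 annotated exons. Its gene reads were 180 and 154 in the WT hearts against 365 and 332 in the knockout hearts, or 7.96 and 8.99 against 17.9 and 13.9 CPM. Both PRMT1-cKO hearts were above both WT hearts, and replicate 1 was the higher. The mean rose from 8.48 ± 0.729 to 15.9 ± 2.84 CPM (SD, n = 2 each), which is 1.87-fold (log2 change 0.91 ± 0.20, SE, edgeR adjusted p = 0.00267). With single hearts left out the log2 change lay between 0.68 and 1.06.

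Exon reads of Fosl2 did not pass the test. They were 12 and 8 in the WT hearts against 31 and 19 in the knockout hearts, and the groups did not overlap. Their log2 change was 1.05 ± 0.43 (SE, edgeR adjusted p = 0.0712), and it passed without PRMT1-cKO replicate 2 (edgeR adjusted p = 0.0361). Intron reads, 168 and 146 in the WT hearts against 334 and 313 in the knockout hearts, rose by a log2 change of 0.89 ± 0.20 (SE, edgeR adjusted p = 0.00142, and 0.0904 without WT replicate 1). The difference between the exon and the intron change was 0.29 on the log2 scale (diffSpliceDGE adjusted p = 0.824). Per exon length, the deposited RPKM of Fosl2 was 0.0803 and 0.0630 in the WT hearts against 0.289 and 0.174 in the knockout hearts, and that of Nr4a1 0.570 and 0.466 in the WT hearts against 0.199 and 0.173 in the knockout hearts. By these levels, Nr4a1 was above Fosl2 in both WT hearts and not above it in either PRMT1-cKO heart, though such levels also depend on the number of junctions.

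Fos encodes the founding FOS protein (chromosome 12, 85473890 to 85477273, plus strand, ENSMUSG00000021250). Its gene reads were 17 and 13 in the WT hearts against 11 and 2 in the knockout hearts, or 0.752 and 0.759 against 0.539 and 0.0835 CPM. The WT hearts were alike and the PRMT1-cKO hearts were far apart. The log2 change of -1.33 ± 0.61 (SE) did not pass (edgeR adjusted p = 0.132). It was -3.12 without PRMT1-cKO replicate 1, which passed (edgeR adjusted p = 0.00692). Leaving out the other knockout heart, replicate 2, gave -0.50 (edgeR adjusted p = 0.610), so the size depended on which knockout heart was kept. Fosb, a close paralog, had 11 and 5 reads in the WT hearts against 3 and 6 in the knockout hearts, too few to test. With no read filter its log2 change was -0.96 ± 0.71 (SE, edgeR adjusted p = 0.539). Fosl1, the remaining FOS gene, had 34 and 16 reads against 18 and 10, none of them exon reads, with a log2 change of -0.95 ± 0.45 (SE, edgeR adjusted p = 0.146) that passed without PRMT1-cKO replicate 1 (edgeR adjusted p = 0.0289).

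Atf3 encodes a stress-induced factor that pairs with JUN proteins or with itself and often represses. Its gene reads were 37 and 38 in the WT hearts against 39 and 29 in the knockout hearts, or 1.64 and 2.22 against 1.91 and 1.21 CPM. The groups overlapped, and the log2 change was -0.30 ± 0.33 (SE, edgeR adjusted p = 0.586). Of its 143 reads 4 were exon reads, and a small RNA gene, Gm24748, overlaps its span of 47744 bases, so nearly all of its reads were counted outside its exons and some could belong to that gene. No source used here says whether the counting was stranded.

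The EGR genes had too few reads to test. Egr1, a zinc finger factor of growth signals, had 10 and 1 reads in the WT hearts against 3 and 7 in the knockout hearts, and the groups overlapped. With no read filter its log2 change was -0.27 ± 0.77 (SE, edgeR adjusted p = 0.895). Egr3, its paralog, had 1 and 1 reads in the WT hearts against 0 and 0 in the knockout hearts, which is within the 3 reads that a count of 0 allows. Egr2 had 2 and 0 against 3 and 1, and Egr4 had 0 in each library. At this depth small changes of these genes, or falls from such low levels, could not be seen.

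Myc encodes the MYC factor of cell growth (chromosome 15, 61985341 to 61990374, plus strand, ENSMUSG00000022346). Its gene reads were 1 and 3 in the WT hearts against 19 and 14 in the knockout hearts, or 0.0442 and 0.175 against 0.931 and 0.585 CPM. Both PRMT1-cKO hearts were above both WT hearts. Summed over hearts, 33 reads against 4 give a ratio of 7.39 once divided by the summed TMM-scaled library sizes. Its exact 95% interval, from 2.63 to 28.7, covers counting error only. Myc reached the read filter through the PRMT1-cKO libraries only, so the filter had set its groups apart in CPM before TMM scaling. The interval and the tests of Myc are therefore given as a description. The log2 change was 2.82 ± 0.69 (SE, n = 2 per group, edgeR adjusted p = 0.00530), and with DESeq2 the adjusted p was 0.0462. With single hearts left out it lay between 2.05 and 3.91. All of these reads were intron reads, so spliced Myc RNA was not measured. As intron reads alone the change missed the threshold without WT replicate 1 and without PRMT1-cKO replicate 1 (edgeR adjusted p = 0.176 and 0.0673).

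**Figure D3:**
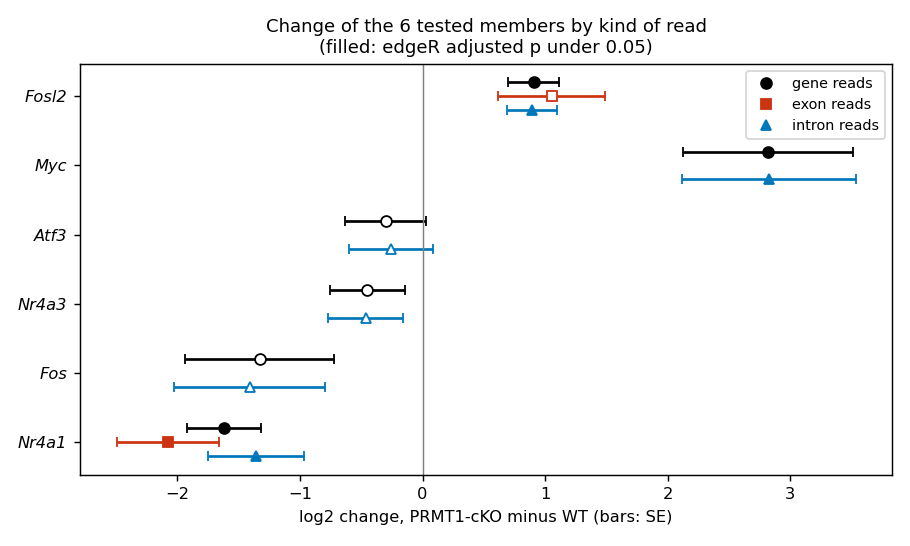
Log2 change (PRMT1-cKO minus WT) with its standard error for the 6 genes that could be tested, in gene reads (black circles), exon reads (red squares) and intron reads (blue triangles). Filled symbols passed an adjusted p of 0.05. Nr4a1 lies left of 0 in all 3 kinds of reads, and exon reads could be tested for Nr4a1 and Fosl2 only. Myc in gene and intron reads, and Nr4a1 in exon reads, reached the read filter through the libraries of the higher group only.

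Per length, the genes can be ordered by intron reads, as CPM of intron reads per kilobase of non-exon span. In WT the levels were 0.655 and 0.708 for Fos, 0.489 and 0.574 for Fosl2 and 0.280 and 0.401 for Nr4a1, which did not overlap one another. Below them came Fosb at 0.139 and 0.0852. Nr4a3 at 0.0549 and 0.0880, Atf3 at 0.0346 and 0.0494, Myc at 0.0199 and 0.0806 and Egr3 at 0.0348 and 0 followed. Of these, Nr4a3 overlapped Fosb and Myc, and Myc, Atf3 and Egr3 overlapped one another. Egr1, at 0.665 and 0.0898, spanned most of the range on 11 reads. In PRMT1-cKO hearts Fosl2 was the highest at 1.13 and 0.842, ahead of Myc at 0.441 and 0.257, Fos at 0.458 and 0.0808 and Egr1 at 0.233 and 0.430, which overlapped. Nr4a1 was at 0.0960 and 0.160, within the range of Fos. The genes rest on between 2 and 1031 gene reads each, and the low ones are ordered by few reads.

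As a group the 9 genes shared no single pattern. Their summed level was 16.4 and 19.1 CPM of gene reads in the WT hearts against 24.3 and 19.2 in the knockout hearts, of which Fosl2 gave the largest part in each heart. The groups did not overlap for 5 of the 6 tested genes, 2 of them higher and 3 lower, where 59.5% of all genes tested did not overlap, 30.4% higher and 29% lower. Myc, 1 of the 2 higher, had its groups set apart by the read filter in CPM before TMM scaling, so the count is a description. Fos and Nr4a3, among the 3 lower, had groups that overlapped in CPM before TMM scaling. The median log2 change of the 6 was -0.38 beside 0.01 over all genes tested. Over 5774 other genes with a mean of at least 5 CPM, the centred log2 levels closest to the mean of the 9 over the 4 hearts were those of Ipo9, Prdm10, Lingo2, Tenm1 and Arfgef2, at Euclidean distances between 0.0235 and 0.0548. That mean profile averages genes that rose and genes that fell.

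Among dimer partners and relatives in the AP-1, ATF and CREB families, 1 rose and 2 fell of 17 tested, with a median log2 change of -0.06. Over all genes tested 11.5% rose and 11.2% fell, which is the background for the counts of this and the following lists. Where a gene reached the read filter through 1 group only, the filter set its groups apart in CPM before TMM scaling, though it did not fix a call. Such a gene is still included in a list's count, but its call is not read as support for the list. For the exon reads of the lists, entry through 1 group was not checked, so their exon counts are a description. Batf and Creb3 of this list entered through the PRMT1-cKO libraries only and were not called. Jdp2, a repressor that pairs with JUN proteins, had 249 and 198 gene reads in the WT hearts against 456 and 447 in the knockout hearts and rose by 0.86 ± 0.20 on the log2 scale (SE, edgeR adjusted p = 0.00291). Ddit3, the stress factor CHOP, fell by a log2 change of -1.04 ± 0.28 and Crem, a cAMP-responsive factor, by -0.74 ± 0.20 (SE, edgeR adjusted p = 0.0113 and 0.0108). All 3 calls were lost without WT replicate 1, which left 0 in the list, and those of Jdp2 and Crem also without WT replicate 2 (edgeR adjusted p between 0.0523 and 0.234). Without PRMT1-cKO replicate 1 the list had 3 lower, and without PRMT1-cKO replicate 2 it had 2 higher. Jdp2 had 0 exon reads and Crem between 2 and 7 per library. In exon reads the call in this list was Atf6, a factor of the unfolded protein response, higher by 0.64 ± 0.16 on the log2 scale (SE, edgeR adjusted p = 0.00521).

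In the MYC network 2 genes rose and 2 fell of 10 tested, with a median log2 change of 0.01. Mlxipl, which encodes the glucose-responsive factor ChREBP, went from 64 and 40 gene reads in the WT hearts to 7 and 2 in the knockout hearts (log2 change -3.63 ± 0.48, SE, edgeR adjusted p = 1.49e-05), none of them exon reads. The MAX-binding repressor genes Mxi1 and Mxd1 rose by 0.78 ± 0.19 and 0.71 ± 0.25, and Max itself fell by a log2 change of -0.70 ± 0.21 (SE, edgeR adjusted p = 0.00564, 0.0480 and 0.0195). These 3 calls missed the threshold when either WT heart was left out (edgeR adjusted p between 0.0868 and 0.305), and those of Mxd1 and Max also without PRMT1-cKO replicate 1 (0.196 and 0.0565) and with a replicate block (adjusted p = 0.0625 and 0.0505). Mxd1 also missed the threshold with DESeq2 (adjusted p = 0.217), with other size factors, with no read filter and without gene models that have no exon (edgeR adjusted p between 0.0519 and 0.0558), and passed with the stricter read filter (edgeR adjusted p = 0.0435). Mlxipl reached the read filter through the WT libraries only.

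Among genes known as MYC growth targets 3 of 22 tested rose and 0 fell, with a median log2 change of 0.45. They were Nme1, a nucleotide kinase gene (3 and 5 reads in WT, 31 and 16 in PRMT1-cKO, log2 change 2.37 ± 0.60), Rrp12, of ribosome assembly (1.10 ± 0.22), and the nucleolar gene Gnl3 (0.79 ± 0.21), with SE and edgeR adjusted p of 0.00618, 9.06e-04 and 0.00850. Nme1 reached the read filter through the PRMT1-cKO libraries only. Without WT replicate 1 the count was 1, without WT replicate 2 it was 2, without PRMT1-cKO replicate 1 it was 2 with 2 lower, and without PRMT1-cKO replicate 2 it was 8. In exon reads 6 of 13 rose and 1 fell, beside 17.6% higher and 18.6% lower over all genes tested. The exon calls included Nme1, Rrp12 and Gnl3, and also Odc1, of polyamine synthesis, at 1.03 and Ncl, nucleolin, at 0.99 on the log2 scale. Nme1 reached the filter on exon reads through the PRMT1-cKO libraries only. The other exon calls of this list were not checked for this, so the exon count is a description.

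Genes known as AP-1 targets rose in 7 and fell in 1 of 10 tested cases, with a median log2 change of 2.06. The matrix protease genes Mmp3 and Mmp9 rose by 5.22 ± 0.35 and 4.69 ± 0.53, heme oxygenase Hmox1 by 4.09 ± 0.29 and the cytokine gene Il6 by 3.60 ± 0.76 (SE, edgeR adjusted p = 4.62e-09, 2.41e-06, 8.00e-09 and 0.00154). Il6 had 1 and 1 reads in the WT hearts against 13 and 17 in the knockout hearts, and it did not pass when WT replicate 1 was left out (edgeR adjusted p = 0.0731). Mmp3, Mmp9, Il6 and Timp1, 4 of the 7 that rose, reached the read filter through the PRMT1-cKO libraries only. Ccnd1, the cyclin D1 gene, fell, with a log2 change of -1.59 (SE 0.29, edgeR adjusted p = 4.25e-04). Without WT replicate 1 and without PRMT1-cKO replicate 1 the higher calls numbered 4. Fibroblast markers rose in 7 of 7 tested cases and leukocyte markers in 8 of 8, of which 1 and 3 reached the read filter through the PRMT1-cKO libraries only. The summed level of fibroblast markers was between 138 and 192 CPM in WT and between 448 and 835 in PRMT1-cKO, that of leukocyte markers between 26.9 and 30.3 and between 62.5 and 83.9. No marker of either list was at 0 over all libraries, and their part in the changes was not tested.

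Of 22 other primary response genes tested, 5 rose and 3 fell, with a median log2 change of 0.25. Ctgf and Cyr61, secreted matricellular proteins, rose by 3.15 ± 0.26 and 1.83 ± 0.29, the polo-like kinase gene Plk2 by 2.49 ± 0.24 and the EGF-like ligand gene Hbegf by 1.79 ± 0.30 (SE, edgeR adjusted p = 4.96e-08, 1.11e-04, 2.75e-07 and 1.65e-04). Ctgf had 66 and 76 gene reads in the WT hearts against 788 and 627 in the knockout hearts, and every one was an exon read. In exon reads 5 of 15 rose and 0 fell. These 4 genes, whose reads lie largely across junctions, rose in exon reads too, with log2 changes of 3.05 for Ctgf, 2.07 for Cyr61, 2.44 for Plk2 and 1.85 for Hbegf. Ier2, Ier5, Ier5l and Rhob had 0 reads in every library. This list had 4 higher and 1 lower without WT replicate 1, 4 and 4 without PRMT1-cKO replicate 1, and 4 and 2 without PRMT1-cKO replicate 2.

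Feedback inhibitors of these pathways rose in 5 and fell in 1 of 18 tested cases, with a median log2 change of -0.09. Dusp4, a phosphatase that switches off MAP kinases, had 9 and 3 gene reads in the WT hearts against 108 and 157 in the knockout hearts and rose by 4.28 ± 0.36 on the log2 scale (SE, edgeR adjusted p = 8.36e-08). Its exon reads went from 1 and 0 to 47 and 57. Dusp4, Zfp36l2 and Tnfaip3, 3 of the 5 that rose, reached the read filter through the PRMT1-cKO libraries only. The RNA-decay factor gene Zfp36l2 rose by 2.20 ± 0.61 and the NF-kappa-B inhibitor Tnfaip3 by 1.87 ± 0.46 on the log2 scale and Btg1, a growth inhibitor, 2.01-fold (SE of the log2 change 0.35, edgeR adjusted p = 0.0125, 0.00512 and 0.0477). These last 3 missed the threshold when WT replicate 1 was left out (edgeR adjusted p = 0.299, 0.0802 and 0.254), as did Btg1 without WT replicate 2 (0.117) or PRMT1-cKO replicate 1 (0.302). With DESeq2 Zfp36l2 (adjusted p = 0.0614) and Btg1 (0.209) did not pass. Btg1 also missed the threshold with other size factors (edgeR adjusted p = 0.0503) and without gene models that have no exon (0.0532), each of which left 4 higher in the list. Without WT replicate 1 the list had 2 higher and 2 lower, without WT replicate 2 it had 3 and 0, and without PRMT1-cKO replicate 1 it had 4 and 3.

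Upstream kinases and SRF factors rose in 2 and fell in 1 of 18 tested cases, with a median log2 change of -0.05. Myocd, the SRF coactivator of muscle, fell by a log2 change of -1.83 ± 0.28, and the kinase genes Map2k2 and Rps6ka1 rose by 1.46 ± 0.26 and 1.04 ± 0.34 (SE, edgeR adjusted p = 7.40e-05, 2.70e-04 and 0.0313). Each of these genes had fewer than 10 exon reads per library, so the calls rest on intron reads. Rps6ka1 did not pass when WT replicate 1 (edgeR adjusted p = 0.297) or PRMT1-cKO replicate 1 (0.162) was left out, nor with DESeq2 (adjusted p = 0.159). In exon reads Elk1, an SRF partner, and Rps6ka5, a nuclear kinase of CREB, had log2 changes of -1.93 and -0.95, and both passed (edgeR adjusted p = 0.0170 and 0.00395).

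**Figure D4:**
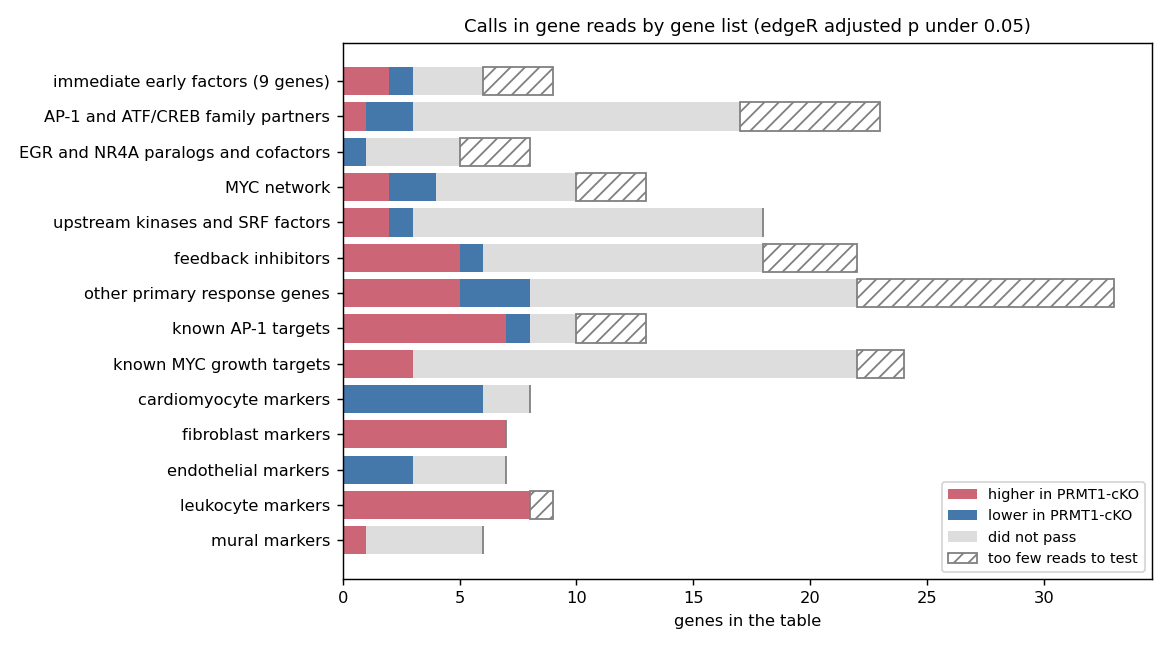
Number of genes per list that were higher (red) or lower (blue) in PRMT1-cKO, did not pass (grey) or had too few reads to test (hatched), in gene reads with an edgeR adjusted p of 0.05. The lists of fibroblast and leukocyte markers were higher in 7 of 7 and 8 of 8 tested genes and the list of AP-1 targets in 7 of 10, of which 1, 3 and 4 genes reached the read filter through the PRMT1-cKO libraries only.

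Cell type markers moved between the same groups. Cardiomyocyte markers fell in 6 of 8 cases, and their summed level was between 5738 and 5943 CPM of gene reads in WT and between 2541 and 3026 in PRMT1-cKO, with none at 0. Endothelial markers fell in 3 of 7 and rose in 0, with sums between 255 and 256 and between 179 and 200.1 CPM. Without WT replicate 1, 4 cardiomyocyte and 2 endothelial markers fell, and without WT replicate 2, 3 and 1. Of 6 mural markers 1 rose, and without PRMT1-cKO replicate 1, 4 fell. In exon reads 0 mural markers rose and 3 fell of 6 tested, unlike in gene reads. Of 6 endothelial markers tested in exon reads 1 rose and 1 fell, and of 8 cardiomyocyte markers 0 rose and 7 fell. Over all genes tested in exon reads 17.6% were higher and 18.6% lower. Of the 5 red cell markers 3 were at 0 in all libraries, and Alas2 had 14 and 0 gene reads in the WT hearts against 39 and 55 in the knockout hearts. Its log2 change of 2.60 passed with edgeR (adjusted p = 0.00188) and not with DESeq2 (adjusted p = 0.482), and was 8.43 without WT replicate 1 and 1.74 without WT replicate 2. The changes of Nr4a1, Fosl2 and Myc lay between the same hearts as these shifts in markers, and the part of cell makeup in them was not tested.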

How the data were processed

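Per the labels' protocols, cardiac total RNA was freed of ribosomal RNA with the RiboMinus Eukaryote kit and made into libraries with a SOLiD kit for total RNA. The build is GRCm38, per the submitters' processing notes; the sources used here give no aligner, counter, use of strand or duplicate removal. The authors deposited, per the file headers, counts of gene, exon and intron reads, RPKM of exon reads, and an EDGE test with p-value, corrected p-value and a fold change score. The 36 other per-sample columns were not used. Starts are printed 1-based.

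Gene reads, exon reads and intron reads were tested over the whole table with edgeR 4.0.16 in R 4.3.3 (TMM, filterByExpr with a minimum count of 10 and total of 15, quasi-likelihood, genotype only, two-sided), after a check on simulated data. Motif windows came from RefSeq. Each SE is the size of the log2 change over the root of its F statistic. The 9 genes and the lists were chosen with earlier results of these data known. Named list genes are the 4 largest changes past the threshold per pathway list, plus the paralogs Fosl1, Jun, Junb, Jund, Egr2, Egr4 and Nr4a2; marker lists are given by counts. Atf6, Odc1, Ncl, Elk1, Rps6ka5, Ccnd1, Timp1, Alas2 and the genes at 0 were named after their values were seen. Alternatives were other scaling, DESeq2 1.42.0, other filters, gene models without exons left out, a replicate block and each heart left out.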

Additional observations from a re-analysis of the deposited data

How the results depend on the processing

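The count of changed genes was 3154 in gene reads, 1724 in exon reads and 2886 in intron reads. With each heart left out in turn it ran from 1815 to 3552, from 1263 to 1699 and from 1632 to 3036. DESeq2 called 2201, 1096 and 1783. The 3 changed members numbered from 1 to 4 with a heart left out (1 without WT replicate 1) and 2 with the stricter filter, which Myc did not enter. With a replicate block they numbered 3 and the gene-read count was 2806. The labels give both groups numbers 1 and 2, and same-numbered hearts deviated with a correlation of -0.12 across genes, so the numbers are not shown to pair the hearts. The crossed pairing, chosen after seeing the data, called 4329 genes in gene reads, 1806 in exon reads, 3702 in intron reads and 4 members. Exon against intron reads differed for 342 genes, for 145 with a replicate block, and for between 55 and 624 with a heart left out. The cause of these shifts was not tested, and neither was the part of the number of hearts or genes in the fit. Directions turned for 4 log2 changes, none of them called: Atf3 intron reads (0.10 without PRMT1-cKO replicate 2; range with a heart left out -0.71 to 0.10), the exon minus intron change of Fosl2 (-0.064 without PRMT1-cKO replicate 1; range -0.064 to 0.54) and Nr4a1 (0.066 without PRMT1-cKO replicate 2; range -1.16 to 0.066), and Nr4a2 gene reads (-0.08 without WT replicate 1, -0.15 without PRMT1-cKO replicate 1; range -0.15 to 0.53). Other scaling and leaving out gene models without exons changed no member's call. Where an arm had 1 heart, it was assumed to vary like the other group. Depth limits Egr1, Egr3 and Fosb, and counts cover few spliced reads of any member but Nr4a1 and Fosl2.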
